A study of Mus musculus with 79 samples.

Results

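The 8 genes described here, Pla2g5, Cyp4f39, Tmem45b, Cd28, Tph1, Syt9, Atp13a5 and Abca4, were chosen by the size and steadiness of their log2 fold changes in comparisons of mouse muscle lacking PER2. They were found by symbol among the 12952 genes of the PER2 tables and the 14253 genes of the RORA tables, and all 8 were present in both. The PER2 log2 fold changes are therefore given as a description. The rule did not use the RORA values, which were tested, although earlier results of both sets were known when the genes were listed. In the RORA set, 7 of the 8 differed between RORA MKO and CTRL muscle in the mean over the day, 2 upward and 5 downward, against 18.9% of all genes upward and 19.3% downward. Of 23 other genes with large PER2 values, described below, 21 were called too.

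The study measured RNA by stranded poly-A sequencing in muscle of mice that lack PER2 or RORα in muscle (MKO), each set against its own control mice (CTRL), which the labels call wild type. Mice were sampled at zeitgeber time (ZT, hours after lights on) 0, 4, 8, 12, 16 and 20. The groups comprised 24 PER2 MKO and 19 PER2 CTRL libraries, and 18 RORA MKO and 18 RORA CTRL libraries, with 3 or 4 mice for each genotype and ZT. The sources used here do not give the Cre driver, the muscle sampled or the age and sex of the mice. Any difference between MKO and CTRL mice beyond the deleted gene cannot be told apart from its loss.

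PER2 belongs to the repressor arm of the circadian clock, in which PER and CRY proteins hold back the activators CLOCK and BMAL1 at E-box sequences. RORα is a nuclear receptor that binds elements built on the core AGGTCA and raises transcription there, in competition with the REV-ERB repressors. The 8 genes come from different pathways. Pla2g5 and Cyp4f39 encode enzymes of lipid metabolism, Abca4 and Atp13a5 encode membrane transporters, Tph1 and Syt9 belong to amine synthesis and vesicle release, Cd28 encodes a receptor of T cells, and Tmem45b encodes a membrane protein of little known function. They lie on 7 chromosomes: Cd28 on 1, where Per2 also lies, Abca4 on 3, Pla2g5 on 4, Tph1 and Syt9 on 7, Tmem45b on 9, where Rora also lies, Atp13a5 on 16 and Cyp4f39 on 17.

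Promoter sequence was at hand for 6 of the 8 genes, as 250 bases upstream of 8 annotated starts in RefSeq on GRCm38.p6. The E-box CACGTG was in none of these 8 windows, against 6.02% of the 32851 windows of the same length in the genome. The core AGGTCA, sought on both strands and not overlapping with CACGTG, was in 2 of them, against 14.0% of all windows. Those 2, from Pla2g5 and Tph1, are shown with the core in capitals. The window of Cyp4f39 is shown with them because these 3 genes had the same deposited sign in both knockouts at every ZT, and it had neither motif. The windows of Atp13a5 and Abca4, which also had neither motif, are shown because these genes had the steadiest RORA values. A match is a description of letters and not a binding site, and its absence says only that the letters are not in the window. The windows lie at chr4:138819258-138819507 on the minus strand for the second start of Pla2g5, chr7:46667378-46667627 on the minus strand for the second start of Tph1, chr17:32452473-32452722 on the plus strand for Cyp4f39, chr16:29378733-29378982 on the minus strand for Atp13a5 and chr3:122044210-122044459 on the plus strand for Abca4. In Pla2g5 the core reads on the opposite strand (TGACCT), at position -74 from the start. In Tph1 it reads on the gene's own strand, at position -157. The other starts of Pla2g5 and Tph1 had no match.
Pla2g5: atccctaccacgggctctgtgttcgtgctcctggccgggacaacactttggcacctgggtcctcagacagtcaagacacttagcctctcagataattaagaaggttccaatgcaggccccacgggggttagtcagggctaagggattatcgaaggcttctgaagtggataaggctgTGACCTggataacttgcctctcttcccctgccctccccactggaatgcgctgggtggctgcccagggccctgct
Tph1: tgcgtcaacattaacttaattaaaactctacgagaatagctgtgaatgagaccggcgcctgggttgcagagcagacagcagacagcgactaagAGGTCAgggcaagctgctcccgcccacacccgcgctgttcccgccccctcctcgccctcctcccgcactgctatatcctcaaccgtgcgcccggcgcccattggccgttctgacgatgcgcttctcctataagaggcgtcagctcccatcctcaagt
Cyp4f39: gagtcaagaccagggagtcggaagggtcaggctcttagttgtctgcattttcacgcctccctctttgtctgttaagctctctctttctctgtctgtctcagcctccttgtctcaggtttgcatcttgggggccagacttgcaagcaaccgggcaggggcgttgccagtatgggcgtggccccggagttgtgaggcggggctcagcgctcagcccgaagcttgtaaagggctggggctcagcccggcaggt
Atp13a5: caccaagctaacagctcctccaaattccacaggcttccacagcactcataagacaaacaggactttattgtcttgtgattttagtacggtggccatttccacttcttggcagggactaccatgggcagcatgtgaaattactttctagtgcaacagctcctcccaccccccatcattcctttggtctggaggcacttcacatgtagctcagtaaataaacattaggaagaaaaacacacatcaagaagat
Abca4: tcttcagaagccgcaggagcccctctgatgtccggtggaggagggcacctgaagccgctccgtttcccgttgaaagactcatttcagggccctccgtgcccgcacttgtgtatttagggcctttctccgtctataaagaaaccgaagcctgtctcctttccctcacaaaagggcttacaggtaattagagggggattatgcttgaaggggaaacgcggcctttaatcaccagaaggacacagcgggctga

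The deposited tables hold comparisons of MKO with CTRL and no values of single libraries, so the depth behind each value is unknown. Per the labels, RORA values set knockout over wild type. Neither the labels nor the headers say which genotype is over which in the PER2 tables, so PER2 values are called positive or negative and not higher or lower in the knockout. The targeted gene Rora fell by 1.78 ± 0.15 in RORA MKO muscle (mean ± SD over the 6 ZT, as for all means of this kind). For Per2 the PER2 tables gave 0.37 ± 0.29, which does not settle their direction. In bulk muscle, fewer cells of a type and less RNA per cell cannot be told apart, which bears on every gene below.

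In the PER2 tables the 8 genes spanned mean deposited log2 fold changes of -2.29 to 1.84, each with 1 sign at all 6 ZT, as 18.6% of all genes had. Such genes with a mean level of at least 1 CPM (read counts scaled to library size) and no predicted name numbered 2184. Among them, by size of the mean, the 8 ranked 2 (Pla2g5), 4 (Cd28), 6 (Cyp4f39), 7 (Tph1), 10 (Syt9), 14 (Atp13a5), 18 (Tmem45b) and 43 (Abca4). The list is thus not simply the top of that order. At its upper edge stood Ighg2c, an immunoglobulin heavy chain gene at rank 1 with -2.39 ± 1.13, and Actc1, the cardiac actin gene at rank 3 with -1.99 ± 0.40. At its lower edge stood Slc15a5 at rank 42 with 0.94 ± 0.46 and Nhs at rank 44 with 0.91 ± 0.24. In order of ZT, the authors' deposited PER2 tables called (adjusted p under 0.05) 6, 6, 5, 4, 4 and 4 of the 8, against 2.70%, 12.2%, 1.78%, 3.34%, 0.811% and 1.52% of all 12952 genes. Atp13a5, positive, and Pla2g5, negative, were called at every ZT, against 0.193% of all genes positive and 0.147% negative. Nothing is read from these shares, because this contrast chose the genes.

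In the RORA tables, which did not choose them, the authors' deposited adjusted p called 8, 7, 6, 5, 7 and 7 of the 8 in order of ZT. The same rule called 28.1%, 29.0%, 27.8%, 22.1%, 20.7% and 32.2% of all 14253 genes. The inverse-variance weighted mean over ZT, adjusted by Benjamini-Hochberg over all genes, called 7 of the 8, against 38.2% of all genes. Of these, 5 genes, Pla2g5, Cd28, Tph1, Atp13a5 and Abca4, were called at every ZT and had a mean of 1 or more in size. Of all genes, 3.95% were called up and 4.69% down at every ZT, and 1.26% had a mean of that size. Other genes with large PER2 values were alike in this. Of 23 with a PER2 mean of 1 or more in size, 1 sign at all 6 ZT and at least 1 CPM, the weighted mean called 21. Of these 23 genes, 12 had a RORA mean of 1 or more in size, so neither trait was particular to the 8. The plot of fold changes by ZT sets both knockouts side by side for each gene.

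**Figure D1:**
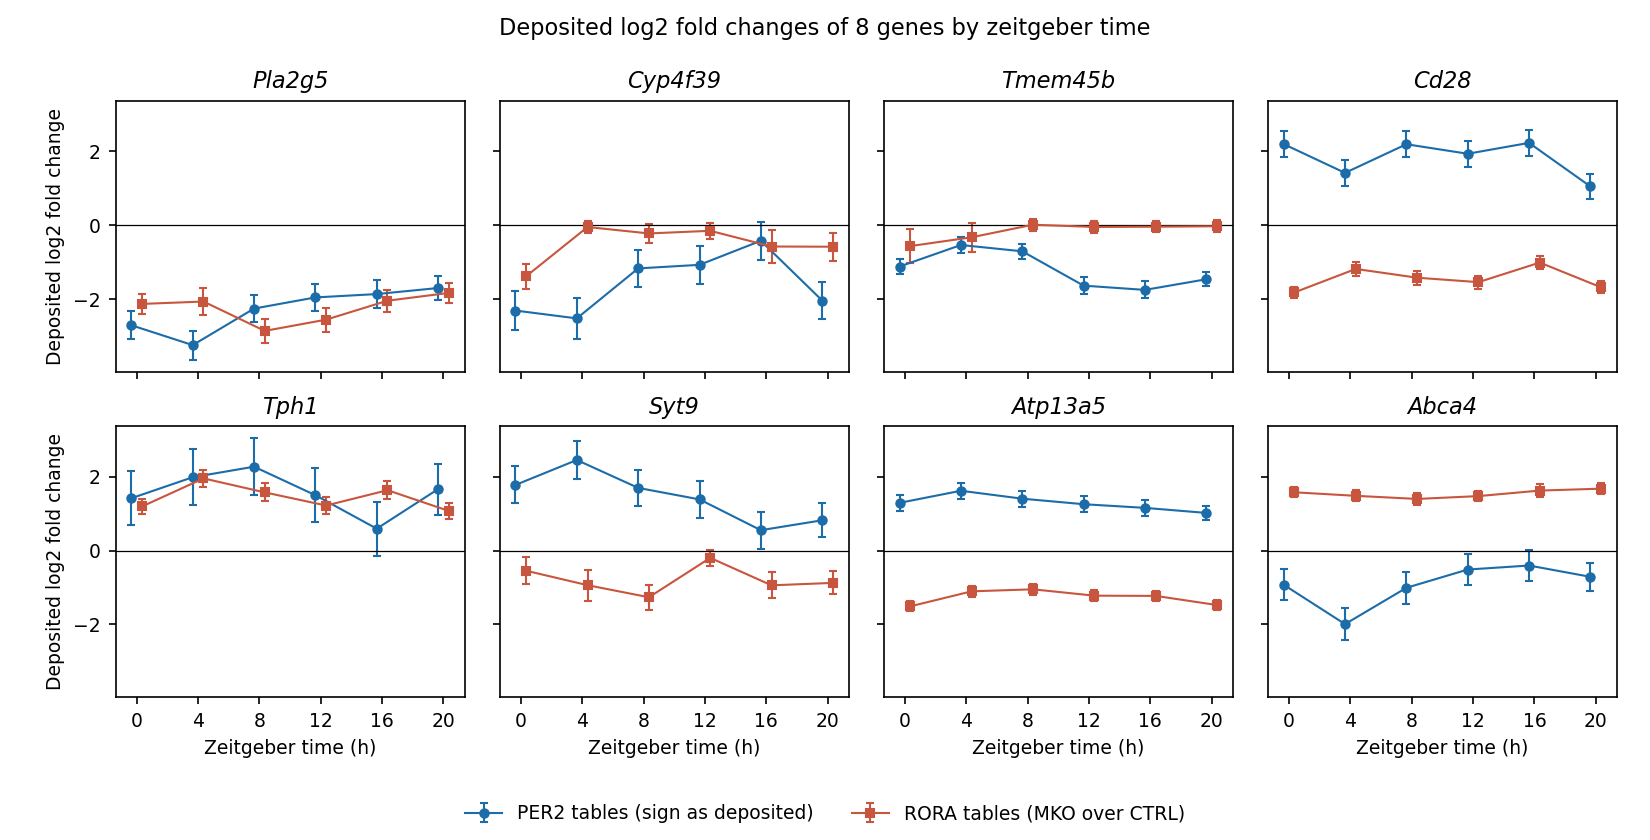
Deposited log2 fold change (y axis) at each zeitgeber time in hours (x axis) for the 8 genes, with PER2 values as circles and RORA values as squares. Bars are 1 standard error, deposited for RORA and derived from the likelihood ratio for PER2. Pla2g5, Cyp4f39 and Tph1 lay on the same side of 0 in both sets at every ZT, whereas Cd28, Syt9, Atp13a5 and Abca4 lay on opposite sides at every ZT.

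Pla2g5 encodes a secreted, calcium-dependent phospholipase A2 that cuts fatty acids from the middle position of phospholipids and is well known from the heart and from macrophages. It was the strongest of the 8 in both sets. Its log2 fold change in the authors' deposited RORA tables was -2.13, -2.07, -2.86, -2.56, -2.04 and -1.83 from ZT0 to ZT20, with errors between 0.26 and 0.35. It was thus called down at each of the 6 ZT and fell by 2.25 ± 0.38 on average, which is 4.75-fold lower in RORA MKO than in RORA CTRL muscle (adjusted p = 1.07e-71). Only 0.260% of all genes had a larger mean change in that knockout. The mean normalized count of Pla2g5 in RORA was low, at 15.4. The authors' deposited PER2 tables gave -2.71, -3.25, -2.26, -1.95, -1.86 and -1.70, again negative at every ZT, with a mean of -2.29 ± 0.59. The RORA mean was 0.983 times the PER2 mean in size.

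Among the other phospholipase A2 genes measured, 4 of 10 fell and 0 rose in RORA MKO muscle. Of all genes 38.2% were called, and the list's median was -0.03 against 0.00 for all genes. In PER2 the share over all genes was 21.6%, and these 2 shares stand beside every list count below. Pla2g7, which encodes the enzyme that inactivates platelet-activating factor, fell by 3.69 ± 0.29. Plaat3, which encodes an adipose phospholipase, had a mean of -0.09 ± 0.10 (called by the weighted mean, adjusted p = 0.103 by limma). Of the PER2 values, 2 of 9 were called, both negative, with a median of -0.01 against -0.02 for all genes. Pla2g7 stood at -0.30 ± 0.19 there, far from the value of Pla2g5. Pla2g15, the lysosomal enzyme, had -0.11 ± 0.11 and lost its call by limma, with an adjusted p of 0.193. The macrophage and myeloid markers, read because macrophages also make Pla2g5, were called in 1 of 12 in the RORA set (positive) and 0 of 10 in the PER2 set, with medians of 0.02 and -0.08.

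Cyp4f39 is the mouse counterpart of human CYP4F22, an enzyme that adds a hydroxyl group to the end of very long fatty acids for the ceramides of the skin barrier. Its values were large in PER2 and small and uneven in RORA. The authors' deposited PER2 tables gave it -2.31, -2.52, -1.17, -1.07, -0.42 and -2.04 from ZT0 to ZT20, largest at ZT4 and smallest at ZT16, a 6.01-fold ratio of sizes. Values in the authors' deposited RORA tables were -1.38, -0.05, -0.22, -0.15, -0.58 and -0.58, with calls at ZT0, ZT16 and ZT20. Its plain RORA mean was -0.49 ± 0.49. The inverse-variance weighted mean, which gives more weight to the small values with small errors, was -0.27, with an adjusted p of 0.0184. That call rested on ZT0: without it the plain mean was -0.31 and the adjusted p 0.227, and limma gave 0.0532.

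The other genes of its family and of omega-hydroxyceramide synthesis moved little. In RORA MKO muscle 3 of 9 rose and 1 fell, with a median of 0.03, and the 2 largest calls were Abhd5, a lipolysis co-activator, at 0.20 ± 0.07 and Cyp4f13 at 0.14 ± 0.13 (limma adjusted p = 0.0556). In PER2, 1 of 8 was called, Cyp4f13 at -0.15 ± 0.13, and the list's median was -0.14. That call was lost by limma, with an adjusted p of 0.120. The level of Cyp4f39 itself was low in both sets, at 1.34 CPM in PER2 and a mean normalized count of 8.48 in RORA.

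Abca4 encodes the flippase that clears retinaldehyde conjugates from photoreceptor discs in the eye. In muscle it was the most even of the 8 genes in the RORA set and the least even in the PER2 set. Its 6 values in the authors' deposited RORA tables were 1.58, 1.48, 1.40, 1.48, 1.63 and 1.68 from ZT0 to ZT20, with errors between 0.13 and 0.17. It was called up at every ZT and rose by 1.54 ± 0.10 on average, 2.91-fold higher in RORA MKO than in RORA CTRL muscle (adjusted p = 1.62e-141). Values in the authors' deposited PER2 tables were -0.93, -1.99, -1.01, -0.51, -0.40 and -0.71, called at ZT4 alone, with a mean of -0.93 ± 0.57. The SD over ZT was 6.80% of the mean in RORA and 61.7% in PER2.

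No other ABCA transporter rose with it. In RORA MKO muscle 4 of 9 fell and 0 rose, with a median of -0.05. The largest falls were Abca5, a lysosomal sterol transporter, at -0.54 ± 0.07, and Abca1, the cholesterol exporter that loads high-density lipoprotein, at -0.21 ± 0.13. As to PER2, 1 of 9 was called, Abca5 at 0.46 ± 0.13, with a list median of -0.02. Of the retinoid handling genes, 3 of 16 fell in RORA MKO muscle and 0 rose, with a median of -0.00054. Aldh1a1, which oxidises retinaldehyde to retinoic acid, led them at -0.80 ± 0.14, followed by Aldh1a2 at -0.19 ± 0.11. In PER2, 2 of 13 were called, both positive, with a list median of -0.07. Aldh1a1 stood there at 0.60 ± 0.24, and Rdh14 at 0.10 ± 0.06 (limma adjusted p = 0.129). Abca5 and Aldh1a1 thus had the sign opposite to Abca4 in each set.

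Atp13a5 encodes a pump of the P5 type, a family whose better known members move polyamines out of lysosomes, and it marks pericytes in mouse brain. It was the steadiest of the 8 over the day in PER2. In the authors' deposited PER2 tables it stood at 1.29, 1.62, 1.41, 1.26, 1.16 and 1.02 from ZT0 to ZT20, a mean of 1.29 ± 0.21. Its values in the authors' deposited RORA tables were -1.51, -1.10, -1.05, -1.22, -1.23 and -1.48. It was called down at every ZT and fell by 1.26 ± 0.19 on average, 2.40-fold lower in RORA MKO than in RORA CTRL muscle (adjusted p = 1.17e-105). The means were nearly equal in size, at a ratio of 0.978, and opposite in sign.

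Its relatives stayed within 0.2 of no change. Atp13a3, a polyamine importer, had a mean of -0.13 ± 0.14 in RORA MKO muscle and Atp13a1, which removes misplaced helices from the endoplasmic reticulum membrane, 0.07 ± 0.07. Both were called by the weighted mean and neither by limma, with adjusted p of 0.0875 and 0.106. In the PER2 tables Atp13a3 stood at 0.18 ± 0.16 and Atp13a1 at -0.12 ± 0.10, also called and also lost by limma, with adjusted p of 0.108 and 0.149. Atp13a2 was called in neither set, so 2 of 3 were called in each, 1 in each direction, with medians of 0.01 in RORA and -0.08 in PER2. The endothelial markers, given because Atp13a5 is known from vessel walls, rose in 12 of 12 in RORA MKO muscle with a median of 0.15, while Atp13a5 fell. In PER2, 3 of 12 were called, all negative, with a median of -0.08. Of all genes, 18.9% rose in RORA and 10.6% were negative in PER2. The part of endothelial cells in the values of Atp13a5 was not tested, and no list of pericyte markers was read.

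Tph1 encodes the rate-limiting enzyme of serotonin synthesis outside the nervous system. It was called at every ZT in RORA and at no ZT in PER2. The authors' deposited RORA tables gave it 1.20, 1.96, 1.58, 1.22, 1.64 and 1.07 from ZT0 to ZT20. It rose by 1.44 ± 0.34 on average, 2.72-fold higher in RORA MKO than in RORA CTRL muscle (adjusted p = 1.38e-53). Its values in the authors' deposited PER2 tables were 1.42, 1.99, 2.27, 1.50, 0.59 and 1.67, a mean of 1.57 ± 0.58. The derived PER2 error was the largest of the 8 genes, with a median of 0.74, and the PER2 level was the lowest, at 1.25 CPM.

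Of the other serotonin and tetrahydrobiopterin genes, 3 of 10 rose and 3 fell in RORA MKO muscle, with a median of 0.00. Pcbd1, which recycles the tetrahydrobiopterin cofactor of this enzyme class, rose by 2.15 ± 0.32, and Maob, which degrades amines, fell by 0.61 ± 0.17. In PER2, 2 of 10 were called positive and 1 negative, with a median of 0.02. Pcbd1 stood there at -0.94 ± 0.49 and Maoa, the enzyme that degrades serotonin, at 0.31 ± 0.18. Tph1 and Pcbd1 thus had the same sign in RORA and opposite signs in PER2. The level of Pcbd1 was low, at 0.53 CPM in PER2 and a mean normalized count of 8.92 in RORA, and PER2 called it at 1 ZT.

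Syt9 encodes a synaptotagmin, a calcium sensor for the fusion of vesicles with the cell membrane. The authors' deposited PER2 tables gave it 1.78, 2.45, 1.70, 1.39, 0.55 and 0.82 from ZT0 to ZT20, a mean of 1.45 ± 0.69, with calls at ZT0, ZT4 and ZT8. Values in the authors' deposited RORA tables were -0.55, -0.94, -1.26, -0.20, -0.94 and -0.88, with errors between 0.22 and 0.42. It fell by 0.79 ± 0.37 on average (adjusted p = 6.4e-07) and was called at every ZT but ZT12. Its mean normalized count was only 10.5. Of the other synaptotagmins and related C2 proteins, 3 of 11 rose and 1 fell in RORA MKO muscle, with a median of 0.02. The largest calls were Syt12 at 0.35 ± 0.24 and Syt3 at 0.21 ± 0.26 (limma adjusted p = 0.103). In PER2, 3 of 12 were positive and 3 negative, with a median of -0.03, and the largest were Sytl2 at -0.54 ± 0.31 and Sytl4 at -0.29 ± 0.35 (limma adjusted p = 0.168). Sytl2 and Sytl4 encode synaptotagmin-like proteins that tether secretory vesicles.

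Cd28 encodes the receptor that gives T cells their costimulatory signal. In the authors' deposited PER2 tables it stood at 2.20, 1.42, 2.20, 1.94, 2.23 and 1.05 from ZT0 to ZT20, a mean of 1.84 ± 0.49, called at every ZT but ZT20. The authors' deposited RORA tables gave -1.82, -1.18, -1.42, -1.54, -1.01 and -1.68, with errors between 0.16 and 0.19. It was called down at every ZT and fell by 1.44 ± 0.30 on average, 2.72-fold lower in RORA MKO than in RORA CTRL muscle (adjusted p = 5.16e-94). Of the T cell markers, 1 of 16 was measured, Thy1, which other cells also make. The other markers, Cd3e and Cd4 included, were sought by symbol and found in neither set. Thy1 had a mean of 0.04 ± 0.08 in RORA and -0.13 ± 0.12 in PER2 and was called in neither set. The part of T cells in the Cd28 values was not tested.

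Genes of CD28 signalling moved in both directions. In RORA MKO muscle 3 of 8 rose and 1 fell, with a median of 0.03. Grb2, a general adaptor, rose by 0.27 ± 0.07. In PER2, 2 of 7 were called, both negative, with a list median of 0.00. Cd274, which encodes the inhibitory ligand PD-L1, was among them at -0.49 ± 0.26.

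Tmem45b encodes a membrane protein with several spans whose role in muscle is not established. It was the one gene of the 8 that the weighted mean did not call in RORA. Its values in the authors' deposited PER2 tables were -1.12, -0.53, -0.71, -1.64, -1.75 and -1.46 from ZT0 to ZT20, a mean of -1.20 ± 0.50, and it was called at every ZT but ZT4. Those in the authors' deposited RORA tables were -0.56, -0.33, 0.02, -0.05, -0.04 and -0.03, with calls at ZT0 and ZT4 and errors up to 0.46. Its plain RORA mean was -0.16 ± 0.23, the median of the 6 ZT -0.04 and the weighted mean -0.05. The adjusted p was 0.704 by the weighted mean, 0.150 by limma and 0.00657 by Stouffer's sum, which adds the z values with their signs, so the call turned on how the 6 values were combined. Its mean normalized count in RORA was 5.58, the lowest of the 8. Its relative Tmem45a, the 1 other family member measured, had -0.02 ± 0.13 in RORA and -0.10 ± 0.17 in PER2 and was called in neither.

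Counted over the 9 lists together, leaving the 8 genes out, 31 of 77 genes were called in RORA (40.3%, against 38.2% of all genes) and 19 of 72 in PER2 (26.4%, against 21.6% of all genes, 10.9% positive and 10.6% negative). The PER2 count was 10 by limma and 10 with ZT4 and ZT12 left out. No difference between the relatives and other genes was tested.

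**Figure D2:**
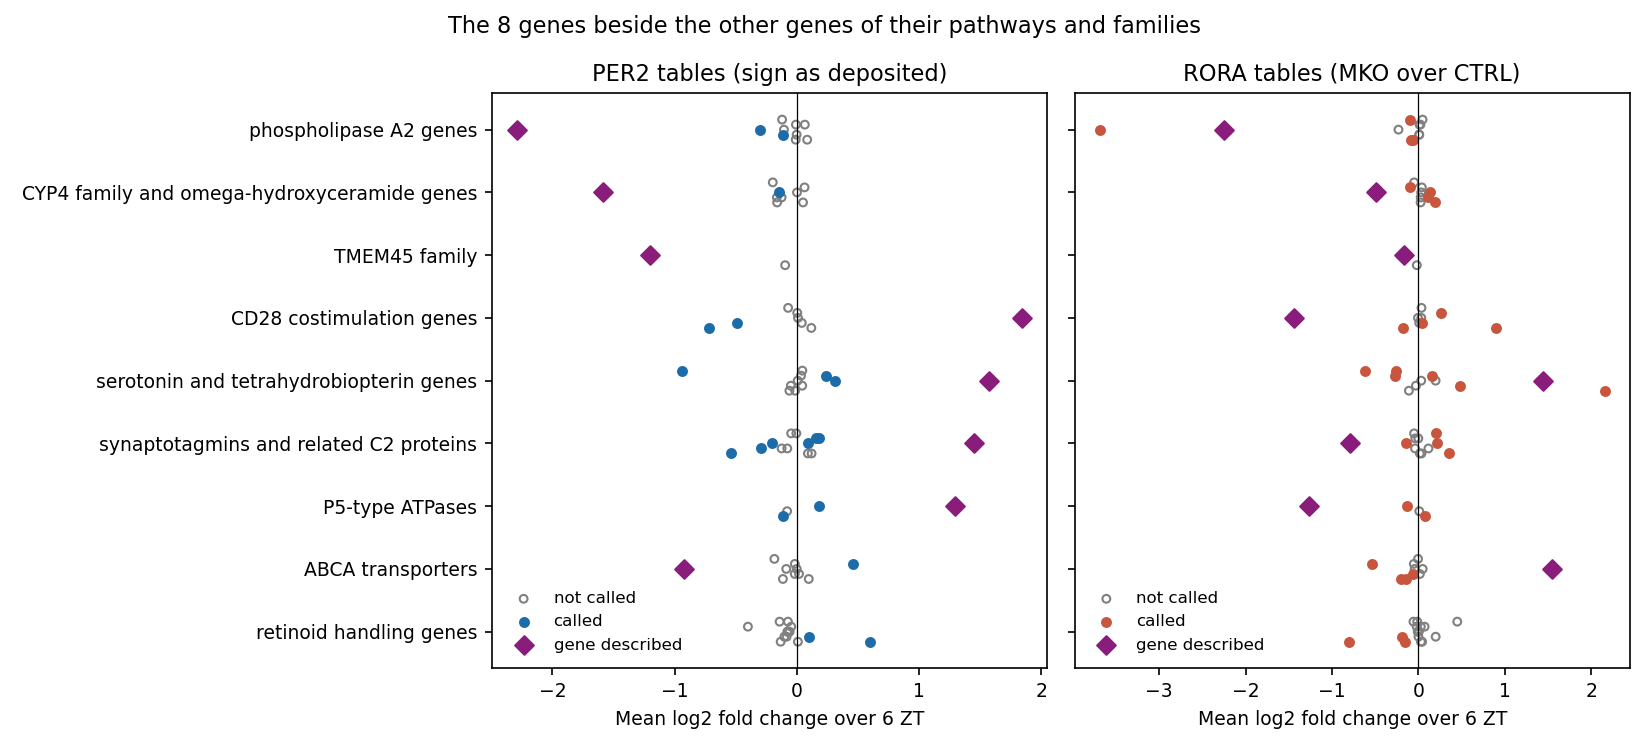
Mean log2 fold change over 6 ZT (x axis) for each of the 8 genes (diamonds) and the other measured genes of its pathway or family (circles, filled where called by the combined test), in PER2 on the left and RORA on the right. Each diamond lies outside its relatives in PER2. In RORA, Pla2g7 lies beyond Pla2g5 at -3.69 and Pcbd1 beyond Tph1 at 2.15.

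Stability over the day differed between the genes and between the sets. As a percentage of the mean, the SD over ZT in PER2 was 16.0% for Atp13a5, 25.7% for Pla2g5, 26.8% for Cd28, 36.6% for Tph1, 41.7% for Tmem45b, 47.7% for Syt9, 52.0% for Cyp4f39 and 61.7% for Abca4. In RORA the order was Abca4 at 6.80%, Atp13a5 at 15.0%, Pla2g5 at 17.0%, Cd28 at 21.1%, Tph1 at 23.3%, Syt9 at 46.7%, Cyp4f39 at 99.2% and Tmem45b at 141%. Atp13a5, Pla2g5 and Cd28 were among the 4 steadiest in both. These percentages hold sampling error as well as time of day.

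The size of the PER2 value was largest at ZT4 for 5 of the 8 (Pla2g5, Cyp4f39, Syt9, Atp13a5 and Abca4) and smallest at ZT16 for 4 (Cyp4f39, Tph1, Syt9 and Abca4). The median size over the 8 was 1.99 at ZT4 and 0.88 at ZT16, and over all genes 0.18 at ZT4 and 0.08 at ZT16. ZT4 and ZT12 also stood apart in the whole PER2 set: transcript length and GC content accounted for 26.4% of the variance of the fold changes across genes at ZT4, for 23.8% at ZT12 and elsewhere for no more than 3.95%. Red blood cell markers had a median of -1.32 at ZT4 (6 of 6 called) and -0.99 at ZT12 (4 of 6). For the 8 genes that trend came to between -0.09 and 0.16 at ZT4, and with it removed the same 5 genes were largest at ZT4.

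In RORA the hypothesis of 1 constant effect over ZT was tested by Cochran's Q. It called 0 of the 8 at an adjusted p under 0.05, against 11.0% of all genes. At an unadjusted p under 0.05 it took 3, Cyp4f39, Cd28 and Tph1, against 21.0% of all genes. A 24 h cosine fit also called 0, and Q computed on z values called 1, Cd28. The call of Cd28 turned on the setting, with an adjusted p of 0.0539 for Q, 0.00620 on z values, 0.0382 when only genes averaging 50 or more normalized counts were adjusted together, 0.0368 without ZT8, 0.0320 without ZT12, 0.347 without ZT16 and 0.622 for the cosine. Its fall was largest at ZT0 (-1.82) and smallest at ZT16 (-1.01). A p that misses the threshold does not show that the effects were constant. Q also made no allowance for shrinkage of the deposited fold changes, for which ratios are given below.

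Set against each other, the knockouts gave 2 patterns. The deposited signs were the same for Pla2g5, Cyp4f39 and Tph1 and opposite for Cd28, Syt9, Atp13a5 and Abca4, counting the 7 genes called in RORA. Whichever way the PER2 tables run, these 3 genes and these 4 genes related to the RORA values in opposite ways. Predicted names were left out of both counts that follow. Among 23 other genes with a PER2 mean of 1 or more in size, 1 sign at all 6 ZT and at least 1 CPM, 21 were called in RORA, 2 with the same deposited sign and 19 with the opposite one. Among the 10663 genes found in both sets at 1 CPM or more in PER2, 4806 were called in RORA and 72.0% of these had the opposite sign. The libraries of the sets, controls included, are separate per the labels. The PER2 signs took part in choosing the 8, so these shares are a description. The ratio of the RORA mean to the PER2 mean in size was 1.66 for Abca4, 0.983 for Pla2g5, 0.978 for Atp13a5, 0.918 for Tph1, 0.784 for Cd28, 0.548 for Syt9, 0.310 for Cyp4f39 and 0.137 for Tmem45b.

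**Figure D3:**
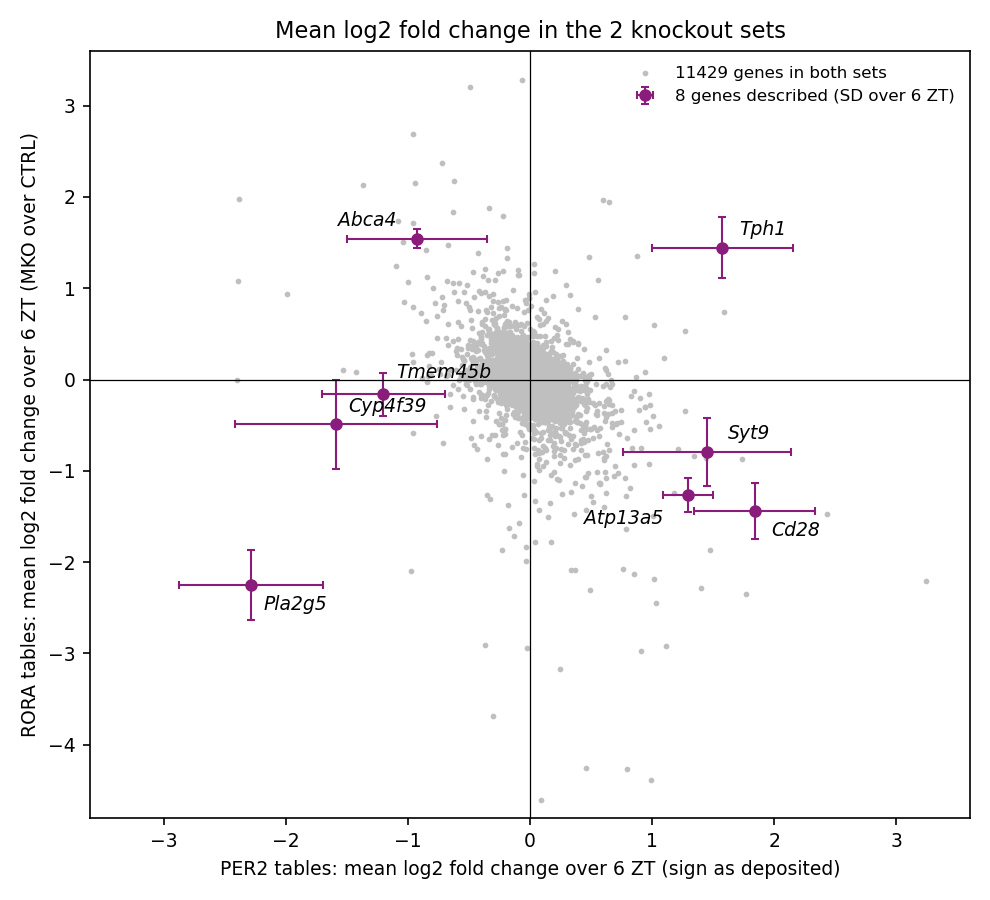
Mean deposited log2 fold change over 6 ZT in the PER2 tables (x axis, sign as deposited) and in the RORA tables (y axis, MKO over CTRL) for 11429 genes in both sets (grey) and the 8 genes (purple, bars are the SD over 6 ZT). Pla2g5, Cyp4f39 and Tmem45b lie at the lower left and Tph1 at the upper right, while Cd28, Syt9, Atp13a5 and Abca4 lie on the other diagonal, where most grey points away from the centre also lie; 2 genes fall outside the axes.

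The small RORA values of Cyp4f39, Tmem45b and Syt9 came with low levels. Pla2g5, with the largest RORA mean of the 8 in size, was also low, at a mean normalized count of 15.4. In RORA the ratio of a fold change over its error to the z value of its p, which is 1 where fold changes are not shrunken, was 0.862 in the median over all genes. It was 0.367 for Tmem45b, 0.437 for Cyp4f39 and 0.614 for Syt9, and between 0.897 and 0.958 for the other 5 genes. The RORA sizes of those 3 genes, and their ratios to PER2, may therefore be understated more than the rest. The weighted mean and Cochran's Q used these values and errors as deposited, so their p-values carry the same limit.

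The genes also differed in level between the sets. The PER2 tables give 1 mean level per gene, the same at all 6 ZT, and levels by genotype were not analysed here. Per kilobase of the longest transcript, that level was 1.17 on the log2 CPM scale for Pla2g5, 0.12 for Atp13a5, 0.10 for Cd28, -0.21 for Tmem45b, -0.66 for Syt9, -0.96 for Cyp4f39, -1.66 for Abca4 and -1.87 for Tph1. The spread between libraries was not analysed here, so neighbours in this order cannot be told apart by it. To compare the sets, which were normalized separately, the log2 of the RORA mean normalized count minus the PER2 log2 CPM was taken for each gene and set against its median over 10663 genes. From that median Tph1 stood at 2.44 and Abca4 at 0.82, whereas Tmem45b stood at -2.48, Pla2g5 at -2.08, Syt9 at -1.54 and Cyp4f39 at -1.003. Cd28 at -0.22 and Atp13a5 at -0.32 were close to it.

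Differences in level of that size were found in few genes. The median size over those 10663 genes was 0.14. Among the 2423 others within the 8 genes' range of PER2 level, 9.45% differed by 1 or more and 2.89% by 2 or more. Of the 8, 5 and 3 did so. The 3 genes with the same sign in both sets all differed in level by 1 or more. Of the 4 with opposite signs, Syt9 did so. The part of these level differences in the fold changes was not tested.

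**Figure D4:**
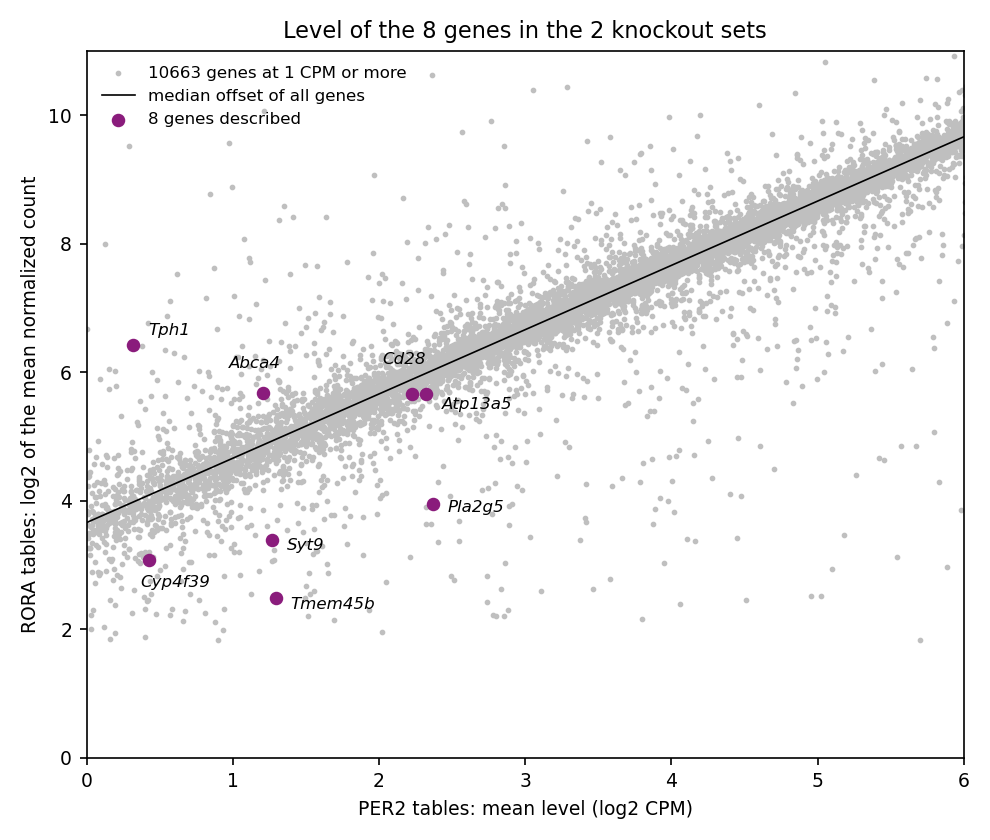
Level in the RORA tables (y axis, log2 of the mean normalized count) against level in the PER2 tables (x axis, log2 CPM) for 10663 genes (grey) and the 8 genes (purple), with a line at the median offset of all genes. Cd28 and Atp13a5 lie near the line, Tph1 farthest above it at 2.44 and Tmem45b farthest below it at -2.48.

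The genes whose values were most like each of the 8 were found by the smallest root mean square difference over the 12 fold changes, 6 from each set, among 10663 genes. Atp13a5 had the closest match, Amy1, which encodes an amylase, at a difference of 0.21 against a size of 1.29 for Atp13a5 itself. Amy1 averaged 1.17 ± 0.18 in PER2 and -1.25 ± 0.05 in RORA. The next for Atp13a5 were Tpx2, a spindle protein gene (0.38), and Musk, the receptor kinase that organises the neuromuscular junction (0.40). The same Tpx2 (0.40) and Musk (0.55) were among the 3 nearest to Syt9, with the zinc transporter gene Slc30a2 (0.51) between them. Musk averaged 1.34 ± 0.18 in PER2 and -0.84 ± 0.15 in RORA. Cd28 was nearest to Atp13a5 (0.54), then Amy1 (0.65) and Npnt, which encodes the matrix protein nephronectin (0.68).

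Abca4 was closely matched by Plin3, a lipid droplet coat gene (0.30), Ppp1r1a, an inhibitor of protein phosphatase 1 (0.35), and Fam174b (0.36), against its own size of 1.33. Plin3 averaged -0.85 ± 0.30 in PER2 and 1.41 ± 0.09 in RORA. The genes with the same sign in both sets had looser matches. For Tph1 they were Kif26b (0.68), Otog (0.69) and Bcl2, an inhibitor of apoptosis (0.77), against a size of 1.57. For Pla2g5 they were Tiam1, an activator of the small GTPase Rac (1.05), Cyp4f39 (1.47) and Ush1c (1.49), against a size of 2.31. For Cyp4f39 they were Lrtm1 (0.73), Kl, which encodes klotho (0.76), and Mcm6, a replication helicase subunit (0.79), against a size of 1.33. Tmem45b was most like Adora1, an adenosine receptor gene (0.47), and Casr, which encodes the calcium-sensing receptor (0.51), against a size of 0.93. Likeness of this kind is across fold changes that the choice of the 8 genes partly used, and is given as a description.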

How the data were processed

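Muscle RNA was made into stranded poly-A libraries, per the labels. Per the submitters' processing notes, which give no role or order, the tools were Trimmomatic, STAR, DESeq2, MultiQC, bcl2fastq 2.20.0.422 and R 4.1, with builds mm9 and GRCm39. The 12 tables used hold the authors' comparisons, 1 for each knockout at each ZT. Depth per library is therefore unknown, and the precision is that of the authors' errors and tests. The RORA tables give, per the file headers, a normalized count averaged over libraries (a signal level), a deposited log2 fold change and its error, and a p-value, raw and adjusted. Genes had passed the authors' filter of 10 reads in 3 samples, per the labels. The deposited PER2 tables hold a log2 fold change, an averaged log2 CPM, a likelihood ratio (a score) and a p-value, raw and adjusted, per the file headers. Recomputed Benjamini-Hochberg values differed from the deposited ones by at most 1.3e-14.

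A PER2 error was derived by dividing the log2 fold change by the root of the deposited likelihood ratio. Over ZT, RORA was combined by inverse-variance weighting and PER2 by Stouffer's sum of signed z, each with a two-sided normal p adjusted over all genes. Cochran's Q (5 degrees of freedom) tested change with ZT in RORA. Tests planned for counts were not used, because the tables hold comparisons. Each ZT has its own mice by the design text. A p measures the spread between those mice as the authors modelled it. Procedures were tested on simulated data drawn without shrinkage, so that check does not cover the shrunken RORA values. Limma 3.58.1 ran in R 4.3.3, and Python 3.11.15, NumPy 2.4.6, pandas 2.3.3, SciPy 1.17.1 and matplotlib 3.10.9 did the rest. For RORA, 13339 symbols were the deposited ones and 893 came from GENCODE M21, the source of lengths and GC content (matched for 12333 PER2 genes, 95.2%). Chromosomes were taken from RefSeq.

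The 8 genes, 9 pathway lists and 13 cell type lists were chosen with earlier results of these data known. Also named are the targeted genes, the 3 nearest to each gene (at least 1 CPM, no predicted names), the 2 largest calls of each list and the genes ranked beside the ends of the list. Of the genes this rule takes, 2 are not reported here. Any other gene named was chosen after its values were seen. Alternatives were Stouffer's sum or limma for the RORA mean, adjustment within genes averaging 50 or more normalized counts, each ZT left out, medians over ZT, Q on z values, a 24 h cosine, PER2 without ZT4 and ZT12, and PER2 with a trend on length and GC content removed.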

Additional observations from a re-analysis of the deposited data

How the results depend on the processing

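All 72 alternative PER2 means of the 8 genes kept their sign, as did the 64 alternative RORA means. Most of these could not have changed sign, so little is read from this. In PER2 each gene had the same sign at every ZT, so means with ZT left out and medians were bound to keep it. Only the PER2 means with the trend on length and GC content removed were free to change. In RORA every gene but Tmem45b also had the same sign at every ZT, which fixed the sign of its alternative means. Calls were made with each ZT left out, and 1 changed, that of Cyp4f39, at -0.31 without ZT0 (adjusted p = 0.227). The RORA mean called 7 of the 8 as planned. Stouffer's sum called 8, with Tmem45b added (adjusted p = 0.00657), and limma called 6, with Cyp4f39 lost (adjusted p = 0.0532). The inverse-variance means and medians carried no call, and they were smaller in size for Cyp4f39 and Tmem45b, the values of which stand beside their plain means. Adjusted within genes averaging 50 or more normalized counts, which leaves out Pla2g5, Cyp4f39, Tmem45b and Syt9 by construction, the RORA mean called 4 of the 8, and the deposited p of single ZT, an alternative chosen after seeing the data, called 4 at ZT0, 4 at ZT4, 4 at ZT16 and 4 at ZT20. The change with ZT was called for 1 gene, Cd28, on z values and under that adjustment, and for 0 to 1 genes with 1 ZT left out (1 without ZT8 and 1 without ZT12). The number of PER2 pathway genes called was 19, and it was 10 by limma and 10 with ZT4 and ZT12 left out of Stouffer's sum. The cause was not tested. For RORA that number was 31, and 24 by limma and 39 by Stouffer's sum. No paired analysis was possible because the tables hold comparisons and carry no library columns.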

Other observations

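Over all genes, 18.9% rose and 19.3% fell in RORA, and 10.9% were positive and 10.6% negative in PER2. The counts of cell type markers here are of calls in the values combined over ZT, except where a ZT is named. They are to be read beside these shares, and no difference from them was tested. In RORA MKO muscle 7 of 12 fast fibre markers fell and 1 rose (median -0.09), and 1 of 10 slow fibre markers rose (median 0.11). At single ZT the slow fibre markers shifted both ways in RORA, with medians of 0.69 at ZT0 (9 of 10 called) and -0.19 at ZT4 (6 of 10). In PER2, 1 of 12 fast and 1 of 10 slow fibre markers were called, both negative, with medians of -0.02 and -0.04. Of 14 genes of the neuromuscular junction and denervation, 4 rose and 5 fell in RORA (median 0.02), and 3 were positive and 5 negative in PER2 (median -0.13). Musk was the highest of the list in PER2 and the lowest in RORA, at 1.34 and -0.84. Of the acetylcholine receptor subunit genes in the list, only Chrnd and Chrnb1 are given, chosen after their values were seen. Chrnd had the sign opposite to Musk in both sets, at -0.32 ± 0.07 in PER2 and 0.45 ± 0.31 in RORA. Chrnb1 was opposite to Musk in PER2, at -0.16 ± 0.06, and had its sign in RORA, at -0.24 ± 0.06. Both were called in both sets.

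Of the other cell types read, the 1 B and plasma cell marker measured in PER2, Ighm, was negative at -1.37 ± 0.54, and in RORA it was the 1 of 4 that rose, by 2.13 ± 0.39. Ngfr was the 1 of 10 Schwann cell markers called in the mean over ZT in each set, at -1.04 ± 0.16 in PER2 and 1.51 ± 0.19 in RORA. At single ZT, RORA called 7 of the 10 at ZT4 (median -0.30) and 9 at ZT20 (median 0.62). Red blood cell markers were negative in 6 of 6 in PER2 (median -0.48), and in RORA 1 of 6 rose and 1 fell (median 0.13). At single ZT the PER2 calls lay at ZT4 and ZT12 only, as given above. RORA called 5 of 6 at ZT8 (median 0.31) and 6 of 6 at ZT20 (median 0.27). Of 8 white adipocyte markers 0 were called in the mean over ZT in either set (medians -0.14 in PER2 and -0.02 in RORA). At single ZT, however, RORA called 5 of them at ZT0 (median -0.50) and 6 at ZT20 (median 0.41). The mean over ZT thus hides shifts of both signs. Fibroblast and tendon markers numbered 1 negative of 11 in PER2 (median -0.07), and 1 rose and 2 fell of 11 in RORA (median 0.01). Of 6 satellite cell markers 1 was negative in PER2 (median -0.09) and 1 rose in RORA (median 0.10). Of 2 epidermis markers 1 was positive in PER2 (median 0.20) and 0 were called in RORA (median -0.07).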
